A study of Mus musculus with 116 samples.

Results

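When Cas9 cut the Myc gene on mouse chromosome 15, 1 broken end was followed by sequencing to whatever DNA it had joined. The joins described here are those whose partner also lay on chromosome 15 but more than 100 kb from the break. They were chosen by position only: the partner had to lie on chromosome 15 at more than 100000 bp from position 61987304. Of 891855 junction rows from 54 libraries, 3315 (0.372%) met this rule, and they came from 3313 distinct joins. By contrast 845253 rows lay within 100 kb of the break and 43287 lay on other chromosomes.

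The cells were v-Abl pro-B cells, early precursors of B cells of the mouse transformed by the v-Abl oncogene. All of them carried the Emu-Bcl2 transgene, so the cells called wild type (WT) here carried it too. Genotypes were WT (clones A and B), Ku70-/- (clones A1 and B1), Lig4-/- (clones A1, B1 and C), Lig4-/- Ku70-/- (clones A1_1 and C1), Lig4-/- +Lig4 (clones A1 and C) and Lig4-/- Ku70-/- +Ku70 (clones A1_1 and C1), so that each genotype rested on 2 or 3 clones. Clones whose names begin with the same letter are called a clone set here, and how they were derived is not given in the sources used here. G1-arrested cells had been kept for 96 h in 3 µM STI-571, which blocks the v-Abl kinase, and received nucleofection of Cas9 and a c-Myc guide RNA. Cycling cells, of WT clone A and Lig4-/- clone A1, were nucleofected without the inhibitor. There were 18 groups of 3 libraries. The labels do not say whether replicates were separate cultures, so p-values measure only the spread between libraries, which may be technical.

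Cells rejoin broken DNA mainly by classical non-homologous end joining. Ku70 is a subunit of the Ku ring that slides onto a broken end and shields it, and ligase IV (Lig4) is the enzyme that seals the ends in that pathway. When the pathway is missing, alternative end joining can act; it often trims the ends first and lines them up on a few matching bases, called microhomology. A join to a distant part of the same chromosome needs a second broken end, and it leaves a large deletion, an inversion or an excised circle if both ends came from 1 copy of the chromosome. Myc itself encodes a growth-promoting transcription factor, and Pvt1 beside it is a long non-coding RNA gene known as a partner in rearrangements of this locus.

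The break lies inside the Myc gene body (chr15:61985341-61990361, mm10, plus strand). The 40 bases of the bait, which end at 61987303, and the 40 bases that follow the break are given first because each join is read against them.

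bait end: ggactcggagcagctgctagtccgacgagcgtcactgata

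after break: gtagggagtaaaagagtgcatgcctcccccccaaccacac

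The next lines are reads of far joins that show the main kinds of junction. In each, the lower-case bases on the left are bait and those on the right are partner, and capitals mark either bases inserted between them or bases covered by both alignments, which need not match the bait at every base. The first is a WT join with 1 inserted base and the next is a WT join with none. The Ku70-/-, Lig4-/- Ku70-/- and cycling Lig4-/- joins have lost bait bases and overlap by 2 bases.

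WT clone A, joined at 36655961: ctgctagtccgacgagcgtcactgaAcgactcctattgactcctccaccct

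WT clone A, joined at 88129452: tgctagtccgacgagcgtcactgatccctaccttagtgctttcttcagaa

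Ku70-/- clone B1, joined at 89929638: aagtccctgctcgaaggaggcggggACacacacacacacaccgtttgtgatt

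Lig4-/- Ku70-/- clone C1, joined at 85323571: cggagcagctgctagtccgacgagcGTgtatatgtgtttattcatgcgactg

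cycling Lig4-/- clone A1, joined at 76395005 in Mroh1: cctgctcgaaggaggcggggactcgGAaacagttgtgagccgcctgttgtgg

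The WT join at 36655961 lost 2 bait bases and the join at 88129452 lost 1. The Ku70-/- join lost 36, the Lig4-/- Ku70-/- join 8 and the cycling Lig4-/- join 31.

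The libraries differed widely in size. Deposited rows per library ran from 74 to 55809, and far joins per library from 0 to 358. Far joins were nearly all seen once, since distinct joins made up 99.9% of far rows against 9.28% of rows within 100 kb. No read name was shared between libraries, 11 distinct far joins occurred in more than 1 library, and 2 of 54 pairs of replicates shared a far join, 1 each. Of the 54 libraries, 34 held at least 10 distinct far joins, and only those entered the comparisons of shares below. Reads carried no molecular identifiers, so intervals cover counting error only.

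Per raw read, far joins were common in G1-arrested WT, rare without Lig4, and common again when Ku70 was missing as well. The WT clone A libraries matched to Lig4-/- and Ku70-/- had 14.6, 21.4 and 13.9 far rows per 100000 raw reads, and WT clone B had 16.3, 17.5 and 28.7. A second G1 group of WT clone A, matched to the cycling cells, had 2.25, 8.37 and 7.73, all below the first group. Lig4-/- clone A1 had 1.26, 1.51 and 1.01 and clone B1 had 1.17, 1.17 and 0.500, below each WT library. The mean log2 difference was -3.98, which is 15.8-fold fewer (-3.58 in clone set A and -4.38 in clone set B; two-sided exact permutation p = 0.005, the smallest that this design can give, adjusted p = 0.02). Libraries of both genotypes shared sequencing runs, and within runs the difference was -3.62 and -3.56 in set A and -4.38 in the single run of set B. All junction rows fell further, from a mean of 36504 per library in WT clone A to 132 in Lig4-/- clone A1. In set B they fell from 37826 to 141. The share of far joins among all rows was therefore higher in Lig4-/-. It was 3.80% against 0.180% in set A and 3.95% against 0.337% in set B.

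Ku70-/- libraries lay near or above the WT level, and each lay above every Lig4-/- library. Clone A1 had 12.6, 32.0 and 22.5 far rows per 100000 raw reads, which overlaps WT clone A. Clone B1 had 55.8, 27.2 and 59.7, and its lowest library lay below the highest of WT clone B. The log2 difference from WT was 0.75 (0.35 in set A and 1.15 in set B; exact permutation p = 0.075, adjusted p = 0.178) and did not pass the test. It passed before adjustment without Ku70-/- clone A1 replicate 1 (0.93, exact permutation p = 0.02), without WT clone A replicate 2 (0.85, p = 0.04) and without Ku70-/- clone B1 replicate 2 (0.93, p = 0.05). In set A the Ku70-/- and WT libraries shared no sequencing run, so genotype cannot be told apart from run in that set. Set B came from 1 run.

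Compared with Lig4-/-, the Ku70-/- libraries held more far joins in each set without overlap. The log2 difference was 4.74 (3.94 and 5.54; exact permutation p = 0.005, adjusted p = 0.02), which is 26.6-fold. The set A value again had no shared run, and the value of set B came from 1 run.

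For set A the authors also deposited lists made by a second pipeline, LAM-HTGTS. These lists hold nearly the same number of rows as the JoinT-seq lists for WT (58, 86 and 55 far rows against 58, 85 and 55) and Lig4-/- (5, 6 and 4 in both). For Ku70-/- clone A1 they hold more, at 90, 157 and 137 against 50, 127 and 89. The Ku70-/- difference from WT in set A was 0.93 in these lists and 0.35 in the JoinT-seq lists (exact permutation p = 0.1 and 0.6, where 0.1 is the smallest possible). The rate in Ku70-/- clone A1 thus depends on the pipeline, and the steps that removed these rows are not given in the sources used here.

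Deleting Ku70 in cells that already lacked Lig4 raised the far joins in both clones. The Lig4-/- libraries of these sets had 0.495, 1.98 and 0.991 far rows per 100000 raw reads in clone A1 and 1.10, 1.10 and 2.20 in clone C. The Lig4-/- Ku70-/- libraries had 20.8, 11.4 and 61.4 in clone A1_1 and 88.6, 81.6 and 82.4 in clone C1. Every double-null library lay above every Lig4-/- library. The log2 difference was 5.01 (4.28 and 5.74; exact permutation p = 0.005, adjusted p = 0.02), or 32.3-fold. Within the shared runs of set A it was 3.60 and 5.64, and set C shared none, so genotype cannot be told apart from run in it.

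Adding Ku70 back to double-null cells lowered the level, and adding Lig4 back to Lig4-/- cells raised it. With +Ku70, clone A1_1 had 0.495, 0.495 and 1.98 far rows per 100000 raw reads and clone C1 had 6.59, 9.15 and 1.83. The log2 difference from the double-null libraries was -4.30 (-4.53 and -4.07; exact permutation p = 0.005, adjusted p = 0.02), with no overlap. Within runs it was -4.79 and -4.40 in set A and -4.07 in set C. With +Lig4, clone A1 had 15.9, 30.2 and 27.2 and clone C had 31.5, 45.8 and 42.1, each library above each Lig4-/- library. That difference was 4.44 (4.23 and 4.65; exact permutation p = 0.005, adjusted p = 0.02). Lig4-/- +Lig4 and Lig4-/- libraries shared no run, and genotype cannot be told apart from run here.

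The double-null and +Lig4 libraries, which share the Lig4-/- background, were compared as a pair added after seeing the data. Their far join level differed by 0.57 on the log2 scale (0.05 in set A and 1.10 in set C; exact permutation p = 0.2, adjusted p = 0.25). In set C the double-null libraries lay above all +Lig4 libraries, and in set A they overlapped. Double-null and +Lig4 libraries shared no run in either set, so in every comparison of these 2 genotypes below genotype cannot be told apart from run. The same holds for Ku70-/- against WT in set A, while set B of that comparison came from 1 run.

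**Figure D1:**
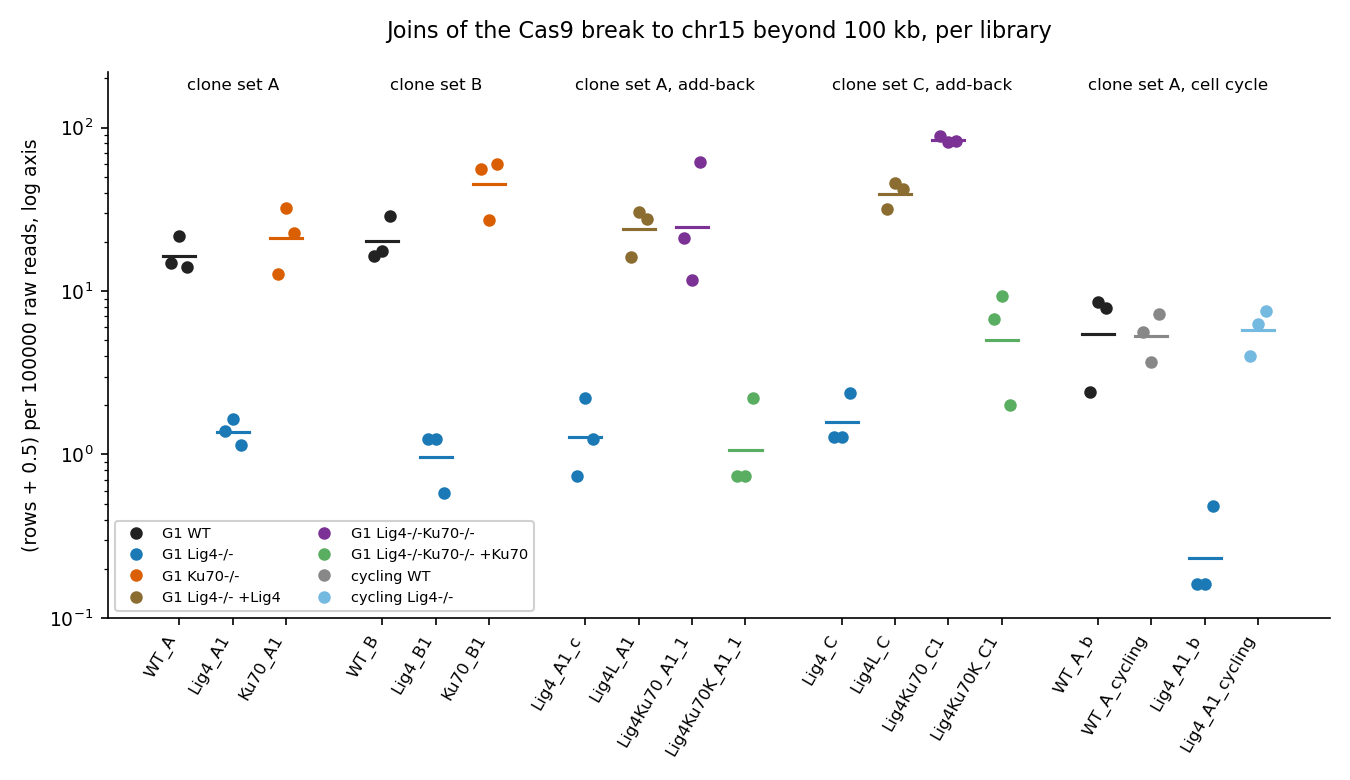
Each point is a library and each line the group mean of log2 values, drawn as (rows + 0.5) per 100000 raw reads on a log axis, with the groups ordered by clone set. The Lig4-/- and +Ku70 groups lie low, the WT, Ku70-/-, double-null and +Lig4 groups lie high except for the second, lower G1 group of WT clone A, and cycling Lig4-/- (3.86 to 7.40) lies far above the matched G1 Lig4-/- group (0 to 0.322).

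Cycling and G1 cells overlapped for WT and did not for Lig4-/-. Beside the second G1 group of WT clone A (2.25 to 8.37 far rows per 100000 raw reads), cycling WT clone A had 5.47, 3.54 and 7.08, so the groups overlap. The log2 difference was -0.03 (exact permutation p = 1), and its sign turned in 4 alternative settings and without any of 3 single libraries. The matched G1 libraries of Lig4-/- clone A1 had 0, 0 and 0.322. A count of 0 in a library of 310675 raw reads allows a rate of up to 0.966 per 100000 by a limit of 3 counts (exact 95% upper limit 1.19). Cycling Lig4-/- had 3.86, 6.12 and 7.40, all above the G1 libraries, with a log2 difference of 4.63 (exact permutation p = 0.1, the smallest that 3 against 3 can give, adjusted p = 0.182). That value rests on a pseudocount of 0.5 in 2 libraries at 0. Cycling Lig4-/- and cycling WT overlapped (log2 difference 0.11, exact permutation p = 0.7). No run held both the cycling and the G1 libraries of a genotype, and cycling cannot be told apart from run.

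Far joins on chromosome 15 were denser than joins on most other chromosomes. In G1 WT there were 6.24 distinct joins per Mb of chromosome 15 beyond 100 kb, which is 2.36-fold the median of 17 other autosomes (2.65 per Mb, range 2.39 to 2.91). Chromosome 6, which holds the Igk locus that G1-arrested cells of this kind cut, was left out of this median and stood at 11.2 per Mb. Ratios were 2.46 in Ku70-/-, 2.31 in Lig4-/- Ku70-/-, 2.48 in +Lig4 and 1.98 in +Ku70. They were 1.34 in G1 Lig4-/-, 1.96 in cycling WT and 1.39 in cycling Lig4-/-. These are descriptions over pooled libraries, with no test.

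Of all distinct joins outside 100 kb of the break, the share on chromosome 15 was 9.88% ± 2.04 (SD, n = 3) in the first G1 group of WT clone A, 7.06% ± 1.78 in its second group and 7.10% ± 0.631 in WT clone B. It was 6.91% ± 1.42 in Ku70-/- clone A1 and 6.57% ± 0.441 in clone B1 (exact permutation p = 0.07 and adjusted p = 0.178 for a gap of -1.75 percentage points). In Lig4-/- it was 5.70% ± 1.18 and 6.13% ± 2.67 (difference from WT -2.58 points, p = 0.08 by the exact permutation test, adjusted p = 0.178). None of the planned comparisons of this share passed the test, and leaving chromosome 6 out of the total moved the Lig4-/- difference to -4.22 points (exact permutation p = 0.01). Single libraries decided the call as well: the Ku70-/- difference was -2.34 without WT clone A replicate 1 (p = 0.02, exact permutation).

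In WT cells in G1 the far partners lay mostly on the centromeric side, and the strands were balanced. The telomeric side makes up 41.6% of the mapped span of chromosome 15 (3054070 to 103937639). It held 34.4% of 630 distinct far joins in G1 WT (exact 95% binomial interval 30.7 to 38.3) and 32.5% of 474 in +Lig4 (28.3 to 36.9). It held 40.4% of 1121 in Ku70-/- (37.5 to 43.3) and 40.7% of 879 in Lig4-/- Ku70-/- (37.5 to 44.1). All these intervals pool joins over libraries and do not cover the spread between libraries. The share on the plus strand was 50.0% in G1 WT, 50.1% in Ku70-/-, 49.0% in the double-null and 53.0% in +Lig4, and every one of these intervals spans 50%. Since the bait reads towards the telomere, plus-strand joins on the telomeric side are placed as deletions and minus-strand joins as inversions. Plus-strand joins on the centromeric side are placed as circles. A junction does not show whether both ends came from 1 chromosome copy.

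Over libraries, the telomeric share was 45.3% ± 9.56 in Ku70-/- clone A1 against 38.1% ± 1.59 in WT clone A (SD, n = 3 each). It was 38.7% ± 4.47 in clone B1 against 31.1% ± 4.14 in WT clone B. The difference was 7.45 points (exact permutation p = 0.055, adjusted p = 0.0917). For the double-null against +Lig4 it was 8.28 points (39.6% against 31.3% in set A and 41.0% against 32.7% in set C; exact permutation p = 0.03, adjusted p = 0.0643). Neither passed after adjustment, and single libraries moved both across 0.05.

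**Figure D2:**
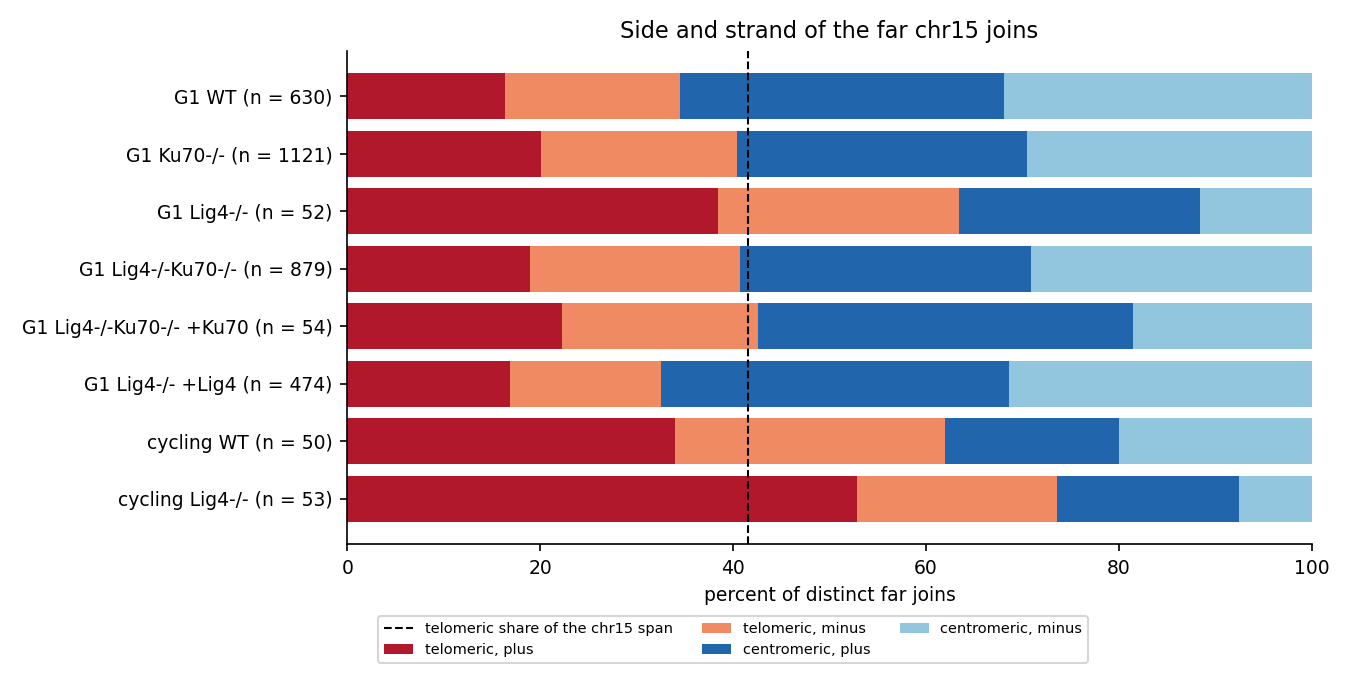
Bars give the percent of distinct far joins on each side and strand, pooled over the libraries of each class, with n joins beside each name, and the dashed line marks the 41.6% of the span that is telomeric. The telomeric plus class is 16.3% in G1 WT and 52.8% in cycling Lig4-/-.

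Cycling cells and G1 Lig4-/- cells placed more of their few far joins on the telomeric side. Of 50 joins in cycling WT, 62.0% were telomeric (exact 95% interval 47.2 to 75.3), and of 53 in cycling Lig4-/- 73.6% were (59.7 to 84.7). Of 52 in G1 Lig4-/-, pooled from 15 libraries with 0 to 7 joins each, 63.5% were (49.0 to 76.4). Intervals of pooled joins do not cover the spread between libraries. The cycling Lig4-/- libraries stood at 91.7%, 52.6% and 81.8% telomeric. The cycling WT libraries stood at 64.7%, 63.6% and 59.1%, above the 42.9%, 34.6% and 45.8% of the matched G1 WT libraries (exact permutation p = 0.1, the smallest possible, adjusted p = 0.15; the first G1 library has under 10 joins and was let in with a minimum of 5). The cycling Lig4-/- libraries had 91.7%, 68.4% and 63.6% of joins on the plus strand, and 71.7% together. Strand in the cycling WT libraries was uneven between libraries, from 27.3% to 90.9% plus.

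Far joins lay at all distances. The median distance from the break was 24.6 Mb ± 3.27 in WT clone A and 26.9 ± 3.92 in clone B, and 27.2 ± 3.65 and 28.0 ± 1.51 in the 2 Ku70-/- clones (SD, n = 3 each). It was 19.3 ± 2.24 and 24.7 ± 0.787 in the double-null, 16.8 ± 3.98 in cycling WT and 14.9 ± 3.00 in cycling Lig4-/-. At the 100 kb limit the rows thinned without a step: 14 lay between 50 and 100 kb and 10 between 100 and 150 kb.

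The first Mb stood out in cycling Lig4-/- cells. Of 53 distinct far joins, 14 (26.4%) lay 100 kb to 1 Mb from the break, at 14.8-fold the mean density of that class, and they came from all 3 libraries (3, 6 and 5 joins). Of the 14, 10 were telomeric on the plus strand, the orientation of a deletion. In cycling WT 3 of 50 joins (6%) lay there, and in G1 WT 19 of 630 (3.02%), with 3 of the 19 telomeric and plus. The density over the class mean was 1.69 in G1 WT, 0.748 in Ku70-/-, 1.91 in the double-null, 2.01 in +Lig4 and 3.36 in cycling WT. In Ku70-/- the first Mb thus lay below the class mean. The cycling Lig4-/- share was not tested against G1 Lig4-/-, where 1 of 52 joins lay in that range.

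Pvt1 (chr15:62037986-62260215, mm10), which begins 50.7 kb and ends 273 kb telomeric of the break, held 23 far joins from 11 libraries in the part beyond 100 kb. Of these, 9 were from cycling Lig4-/-, 6 from the double-null, 3 from Ku70-/-, 2 from +Lig4 and 1 each from G1 WT, +Ku70 and cycling WT. Of the 23, 14 were telomeric and plus. Over the part of Pvt1 beyond 100 kb this is 133 joins per Mb.

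Along the chromosome, far joins of G1 WT cells were densest in gene-poor windows. In 1 Mb windows, 27 windows with at most 1 protein-coding gene start held 46.8 distinct joins per window over all libraries, and 24 windows with at least 10 starts held 24.0. The ratio of gene-poor to gene-rich density was 2.84 in G1 WT and 3.46 in +Lig4. It was 1.68 in Ku70-/-, 1.74 in the double-null and 1.42 in +Ku70, and below 1 in G1 Lig4-/- (0.722), cycling WT (0.593) and cycling Lig4-/- (0.795). Of the gene-rich windows 22 of 24 are telomeric and of the gene-poor 22 of 27 are centromeric, so gene density and side of the break cannot be told apart from the totals. Gene-rich windows are 52.4% of telomeric windows. Among telomeric joins only, the share in them was 36.4% in G1 WT, 43.9% in Ku70-/-, 36.9% in the double-null and 29.9% in +Lig4. It was 43.5% in +Ku70, 48.5% in G1 Lig4-/-, 48.7% in cycling Lig4-/- and 54.8% in cycling WT. Only cycling WT thus lay above the share of windows.

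Per library, Ku70-/- cells had a larger share of far joins in gene-rich windows than WT. WT clone A had 13.8% ± 2.27 and clone B 13.4% ± 4.50, against 19.2% ± 1.15 in Ku70-/- clone A1 and 19.3% ± 1.82 in clone B1 (SD, n = 3 each). The groups did not overlap in either set, and the means lay 5.63 points apart (exact permutation p = 0.005, adjusted p = 0.015). The double-null against +Lig4 gave 9.84 points (24.2% ± 9.17 against 9.07% ± 5.64 in set A, and 17.6% ± 1.73 against 13.05% ± 3.83 in set C; exact permutation p = 0.03, adjusted p = 0.0643), with overlap in both sets. That call ended without Lig4-/- +Lig4 clone A1 replicate 1 (9.92 points, p = 0.07) or replicate 2 (8.39, p = 0.08), by the same exact test. Cycling WT had 41.2%, 27.3% and 36.4% against 0%, 11.5% and 16.7% in the matched G1 WT libraries (exact permutation p = 0.1, the smallest possible).

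**Figure D3:**
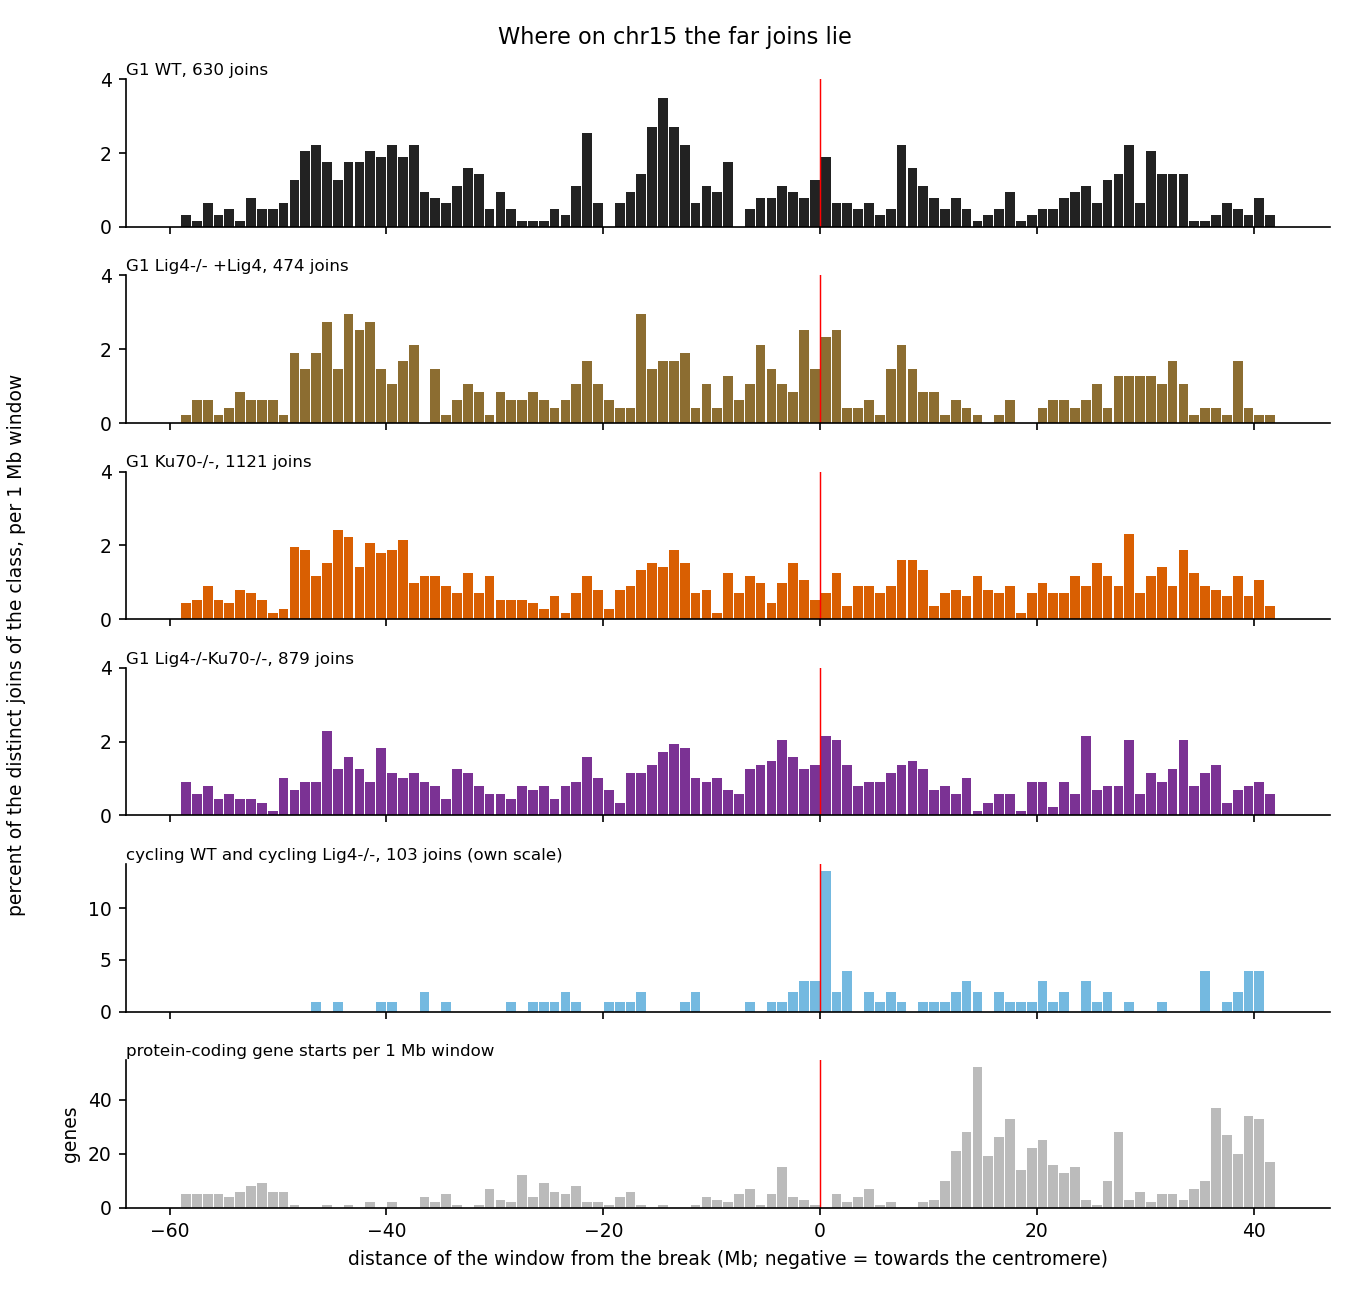
Bars give the percent of the distinct far joins of a class in each 1 Mb window, by distance from the break in Mb (negative towards the centromere), and the lowest panel gives protein-coding gene starts per window. The windows with the most joins, 66 each, lie 43.5 Mb centromeric of the break, next to the break and 28.5 Mb telomeric of it, and the cycling panel, on its own scale, peaks next to the break.

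The genes hit in most libraries were large genes. Cdh12, a cadherin that holds cells together, held 75 joins from 24 libraries (65.2 per Mb of gene body), and Csmd3, a large membrane protein gene, held 81 from 22 (66.8 per Mb). Cdh18, another cadherin, held 39 joins from 18 libraries (42.0 per Mb) and Tmem117, a membrane protein gene, 33 from 16 (70.7 per Mb). Zfpm2, a cofactor of GATA transcription factors, held 28 from 15 (62.3 per Mb), and Ctnnd2, a catenin of neurons, 24 from 15 (28.0 per Mb).

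The other genes of the first 10 were Samd12 (19 joins, 37.7 per Mb), Nell2 (20 joins, 64.7 per Mb), Pdzrn4 (20 joins, 53.3 per Mb) and Cpne8 (17 joins, 88.6 per Mb). The mean over chromosome 15 was 32.8 per Mb, so Ctnnd2, at 28.0, was hit in many libraries while lying below it. The order follows gene length as well as density: Cdh12 spans 1.15 Mb and Csmd3 1.21 Mb. The joins of Cdh12 were 18 in WT, 23 in Ku70-/-, 16 in the double-null and 13 in +Lig4, and 0 in cycling Lig4-/-. These 10 genes together held 356 of all 3313 joins and 87 of 630 in G1 WT. In the small classes they held 2 of 52 in G1 Lig4-/-, 5 of 54 in +Ku70, 1 of 50 in cycling WT and 0 of 53 in cycling Lig4-/-. The genes were picked by libraries hit in these same joins, most of which came from G1 cells. Low counts in the small classes are therefore partly set by that choice, and no difference between classes was tested.

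Over all distinct joins, 1190 (35.9%) lay in the bodies of protein-coding genes, which cover 39.6% of the span, and 317 of 774 genes were hit. Promoter windows, from 250 bases before to 50 after a gene start, held 8 joins (0.241%) and cover 0.258% of the span. Both shares lay slightly below the share of the span.

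Among the genes around Myc, 20 of 29 measured held a join, against 317 of 774 protein-coding genes. The 29 genes span 2.85 Mb and the 774 span 40.4 Mb, so the listed genes are longer on average. The list, which includes the non-coding gene Pvt1, held 106 joins in all. This is 37.2 per Mb against 29.7 per Mb for all protein-coding gene bodies. The median gene of that list had 22.2 joins per Mb, against 0 over all 774 genes. Pvt1 led it with 23 joins, and without Pvt1 the other 28 genes held 83 joins at 31.6 per Mb (median 20.3), against a chromosome mean of 32.8. Khdrbs3, an RNA-binding protein gene, held 11, and Asap1, a regulator of ARF GTPases, held 10. Mtss1 and Nsmce2, the latter a SUMO ligase of the SMC5/6 complex, held 10 each.

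Among genes of the B lineage and DNA repair on chromosome 15, 13 of 28 measured held a join, near the 317 of 774 over all protein-coding genes. These held 41 joins in all (27.9 per Mb over the list, median 0). Ext1, an enzyme of heparan sulfate synthesis, held 9, Trps1 held 6 and Mrtfa held 5. Bin2, an adaptor of blood cells, held 4 and Csf2rb, a cytokine receptor chain, held 3. Xrcc6, which encodes Ku70 itself, held 3 joins from 2 libraries, of which 2 came from Ku70-/- cells and 1 from double-null cells. These 2 genotypes gave 1121 and 879 of all 3313 distinct far joins, so most far joins came from them. Il7r, the interleukin 7 receptor that pro-B cells depend on, held 1.

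Recurrent positions were few. Joins of at least 3 libraries within steps of 200 bp occurred at 6 sites, and the first 5 are described. At site 1 (chr15:88430992-88430994, 169310 bp from Zdhhc25) 6 libraries of 6 groups each gave 1 join, all on the plus strand, with 24 bait bases lost and 8 to 10 bases of overlap. At site 2 (72573129, 16491 bp from Trappc9) 4 libraries each gave 1 join with 68 bait bases lost and 13 bases covered by both alignments. The reads are shown because the overlap is long and at the same bait position each time.

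site 1, Ku70-/- clone A1: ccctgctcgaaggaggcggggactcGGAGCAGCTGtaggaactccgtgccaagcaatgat

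site 2, +Ku70 clone A1_1: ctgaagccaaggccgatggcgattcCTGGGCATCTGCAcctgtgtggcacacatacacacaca

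The 10 bases of site 1 occur in the bait end printed at the start. The 13 capitals of the site 2 read do not match the bait at every base. Sites 3, 4 and 5, all on the minus strand, lie in sequence rich in C and A: these make up 78.3%, 100% and 93.3% of the first 30 partner bases. Site 3 (10988343, in the gene body of Amacr, an enzyme of branched fatty acid breakdown) had 4 joins from 3 libraries, site 4 (14555006) 3 joins and site 5 (82226632, 2252 bp from Tnfrsf13c, the BAFF receptor gene of B cells) 3 joins.

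site 3, Ku70-/- clone B1: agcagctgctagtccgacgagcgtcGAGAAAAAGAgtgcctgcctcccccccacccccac

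site 3, WT clone B: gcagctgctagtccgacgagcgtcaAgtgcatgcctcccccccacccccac

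site 5, Ku70-/- clone A1: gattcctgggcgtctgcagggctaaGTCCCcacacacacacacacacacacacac

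All 4 reads at site 3 and 1 of 3 at site 4 share at least 12 bases in a row with the 40 bases after the break. Over all far joins 110 (3.32%) do: 23 in G1 WT, 26 in Ku70-/-, 37 in the double-null, 12 in +Lig4, 5 in +Ku70, 6 in cycling Lig4-/- and 1 in cycling WT. Whether such reads are joins to chromosome 15 beyond 100 kb or misplaced copies of the sequence beside the break was not tested, and each comparison of structure was repeated without them.

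The junctions differed between WT and Ku70-/- cells. The bait end was kept nearly whole in WT and trimmed in Ku70-/-. The median bait loss was 0 bp in all 6 WT libraries tested (clones A and B), 29 to 34 bp in Ku70-/- clone A1 and 24 to 29 bp in clone B1, with no overlap. The difference was 29.8 bp (32.3 and 27.3; exact permutation p = 0.005, adjusted p = 0.015). More than 10 bp were lost in 80.1% ± 4.20 of Ku70-/- joins (SD, n = 6) and in 6.38% ± 3.73 of G1 WT joins (n = 8).

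Double-null far joins were trimmed as well. Their median loss was 26.5 bp ± 0.500 in clone A1_1 and 25.3 ± 2.08 in clone C1, against 2.17 ± 0.764 and 0.333 ± 0.577 in +Lig4 (difference 24.7 bp; exact permutation p = 0.005, adjusted p = 0.015). Cycling WT medians were 5, 1 and 25.5 bp, and each of the matched G1 WT libraries had 0 (exact permutation p = 0.1, the smallest possible). Cycling Lig4-/- stood at 34.7 bp ± 10.1 against 10.5 ± 13.1 in cycling WT (exact permutation p = 0.2, adjusted p = 0.25). In +Ku70 cells, which lack Lig4, the 2 libraries with enough far joins had medians of 11 and 17 bp. The median loss in G1 Lig4-/- joins to other chromosomes was 30.8 bp ± 5.24 (SD, n = 15). Trimming was thus also seen where Ku70 was present and Lig4 was missing, which was not tested.

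Inserted bases were frequent in G1 WT and +Lig4 far joins and scarcer in Ku70-/- and double-null far joins. Joins with an insertion made up 59.7% ± 0.798 in WT clone A and 32.3% ± 3.29 in clone B, against 17.8% ± 11.8 in Ku70-/- clone A1 and 9.58% ± 2.63 in clone B1 (SD, n = 3 each). In the second G1 group of WT clone A, 2 libraries with enough joins had 38.5% and 41.7%. The difference was -32.3 points (-41.9 and -22.7; exact permutation p = 0.005, adjusted p = 0.015), and -35.2 without reads that repeat the bases after the break. Double-null libraries had 23.3% ± 11.8 and 13.6% ± 0.621 against 43.5% ± 3.97 and 50.1% ± 4.90 in +Lig4 (difference -28.3 points; exact permutation p = 0.005, adjusted p = 0.015). Double-null and +Lig4 cells differ in Lig4 as well as in Ku70. Pooled joins of cells with Ku70 but without Lig4 held insertions in 11 of 52 (G1 Lig4-/-), 8 of 54 (+Ku70) and 21 of 53 (cycling Lig4-/-). What Ku70 and Lig4 each contribute was not tested.

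The gap was widest for short insertions. In G1 WT 13.7% of distinct far joins had 1 inserted base and 12.5% had 2, against 1.87% and 1.34% in Ku70-/-. Insertions of 3 to 10 bases were 14.4% and 6.07%. Insertions over 10 bases were 1.11% in G1 WT, 2.77% in Ku70-/- and 4.21% in the double-null. Joins with insertions of at least 3 bases were searched for 12 bases in a row from the bases after the break. The search covered the whole read beyond the bait, so a match may lie in the partner and not in the insertion. A match was found in 24 of 99 in Ku70-/- and 34 of 99 in the double-null. In G1 WT it was found in 3 of 98 and in +Lig4 in 5 of 91. Blunt joins, with neither insertion nor overlap, were 37.5% of Ku70-/- joins and 23.5% of G1 WT joins.

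**Figure D4:**
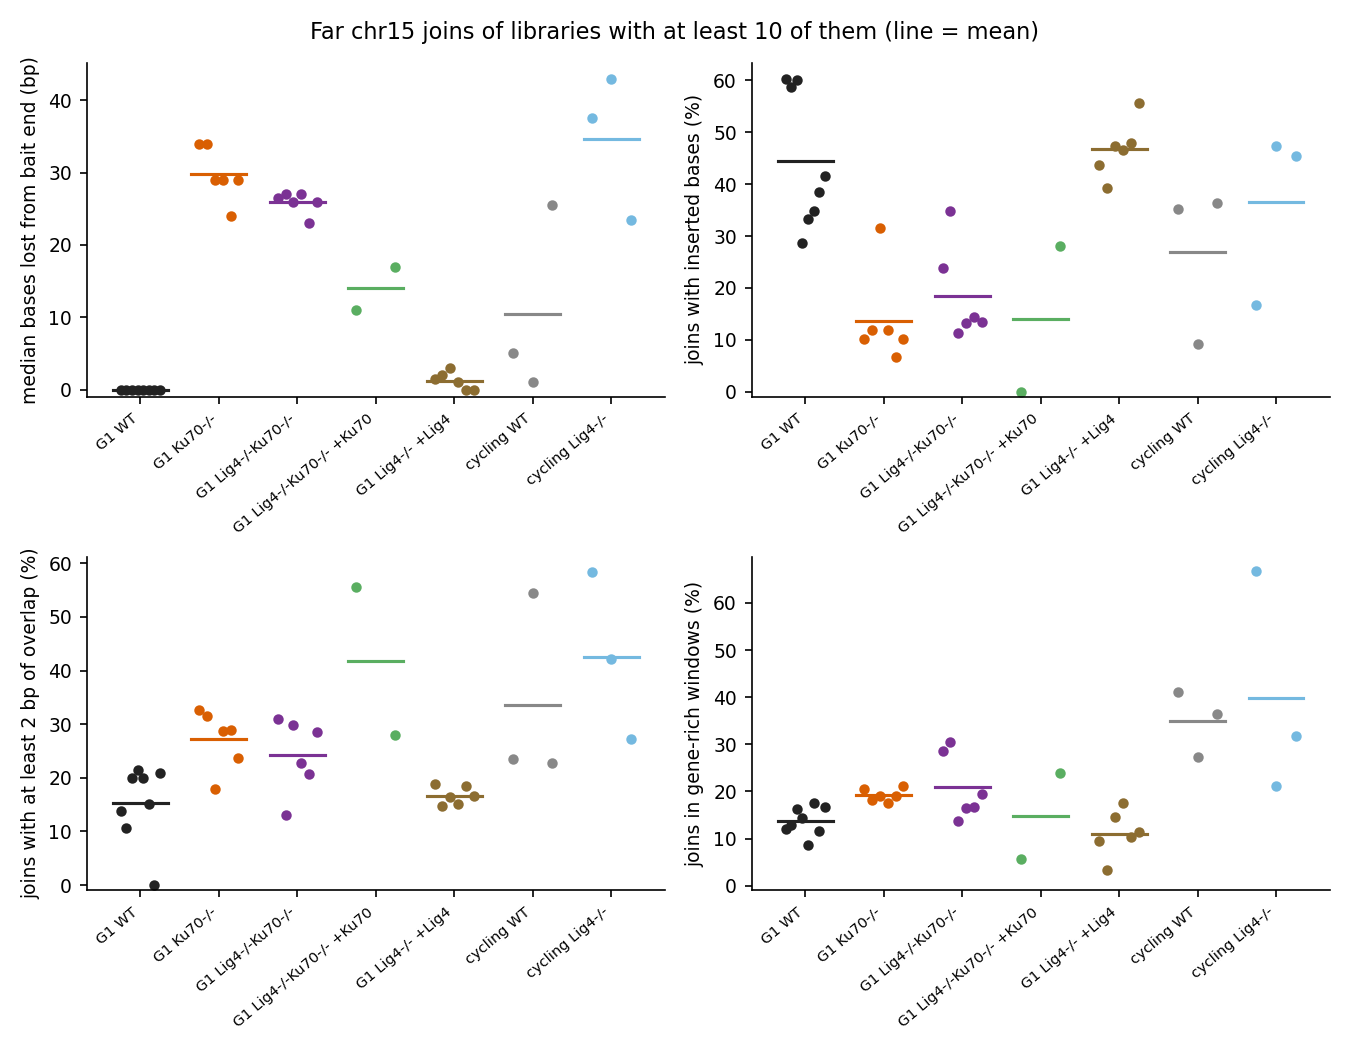
Each point is a library with at least 10 distinct far joins, by class, with lines at class means, for the median bait loss in bp and for the percent of joins with insertions, with at least 2 bp of overlap and in gene-rich windows. Bait loss is 0 in each G1 WT library shown and 24 to 34 bp in Ku70-/-.

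Microhomology, counted as an overlap of the alignments of at least 2 bp, was found in a larger share of all far joins in Ku70-/- than in WT. The share was 27.4% ± 8.16 in clone A1 and 27.1% ± 2.89 in clone B1, against 14.8% ± 4.79 in WT clone A and 18.8% ± 3.31 in clone B (SD, n = 3 each). The difference was 10.4 points (12.6 and 8.23; exact permutation p = 0.01, adjusted p = 0.0333). In set B the groups do not overlap, and in set A they do. Of 792 such overlaps 763 (96.3%) match the bait base for base, and counting only these the difference was 11.02 points (exact permutation p = 0.015). The double-null had 24.6% ± 10.0 and 23.9% ± 4.05 against 16.6% ± 2.01 and 16.7% ± 1.65 in +Lig4 (difference 7.62 points; exact permutation p = 0.045, adjusted p = 0.0844). That unadjusted call ended when any of 9 single libraries was left out (7.15 points and exact permutation p = 0.1 without +Lig4 clone A1 replicate 2). A join with inserted bases cannot have an overlap, so the share depends on the share of insertions as well. Pooled, 630 G1 WT joins held 104 such overlaps and 263 insertions, and 1121 Ku70-/- joins held 300 and 135. The 879 double-null joins held 218 and 126, and the 474 +Lig4 joins held 79 and 228. Whether microhomology differed among joins without insertions was not tested.

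In cycling cells the share was 33.6% ± 18.1 in WT and 42.6% ± 15.5 in Lig4-/- (exact permutation p = 0.5, adjusted p = 0.588). G1 Lig4-/- libraries held too few far joins, at most 7 each, for a share per library. Pooled, 34 of their 52 far joins had such an overlap, which was not tested.

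**Figure D5:**
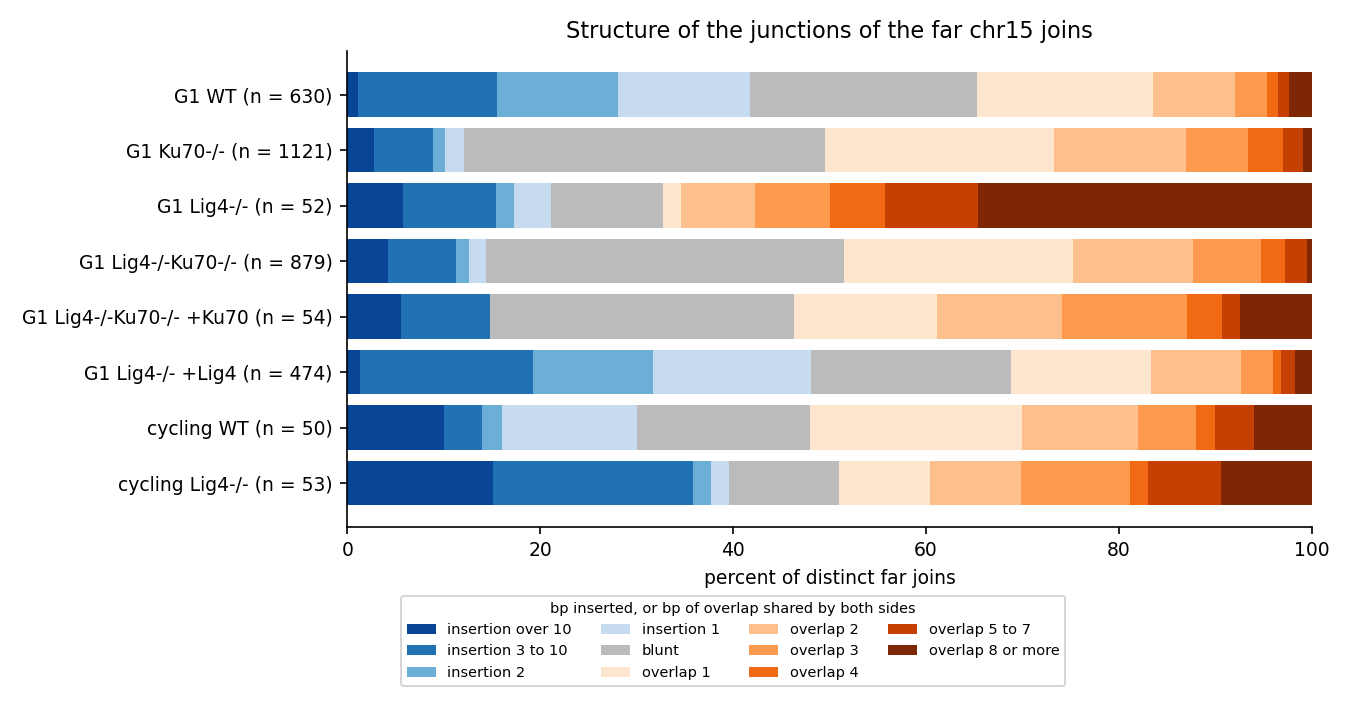
Bars give the percent of distinct far joins with inserted bases (blue), blunt ends (grey) and bases of overlap (orange), pooled over the libraries of a class, with n joins beside each name. The 1 and 2 bp insertions of G1 WT (13.7% and 12.5%) shrink to 1.87% and 1.34% in Ku70-/-, and overlaps of at least 8 bp make up 34.6% in G1 Lig4-/-.

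Long overlaps were few in every class. An overlap of at least 8 bp was found in 67 of 3313 joins, 41 of them on the plus strand, and in 57 of them the overlapping bases match the bait throughout. Their number per 100000 raw reads was 0.383 in G1 WT, 0.335 in Ku70-/-, 0.337 in G1 Lig4-/-, 0.281 in the double-null and in +Ku70, 0.561 in +Lig4, 0.322 in cycling WT and 0.536 in cycling Lig4-/-. The other far joins ranged from 0.636 per 100000 in G1 Lig4-/- to 61.4 in the double-null. In G1 Lig4-/- 18 of 52 far joins (34.6%) therefore had such an overlap. Sites 1, 2 and 6 consist of them. Whether they form in cells or during library preparation was not tested.

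Set beside joins of the same libraries to other chromosomes, far joins on chromosome 15 had a similar microhomology share in cells without Ku70. In the 12 Ku70-/- and double-null libraries it was 25.7% ± 6.11 against 24.1% ± 3.12 (difference 1.60 points, higher in 9 of 12; exact sign-flip permutation p = 0.409). In 14 WT and +Lig4 libraries it was 15.8% ± 5.49 against 18.7% ± 3.33 (difference -2.89 points, lower in 9 of 14; permutation p = 0.0388), a call lost in 3 of 4 alternatives.

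Insertions were scarcer in the far joins than in joins to other chromosomes where Ku70 was missing. In those 12 libraries 16.1% ± 8.95 of far joins had an insertion against 23.7% ± 8.63 (difference -7.63 points, lower in 11 of 12; exact sign-flip permutation p = 0.00293). Without reads that repeat the bases after the break the difference was -4.25 points (exact permutation p = 0.0303). In the 14 WT and +Lig4 libraries the shares were 45.5% ± 10.3 and 44.1% ± 11.4 (permutation p = 0.491). Joins to other chromosomes here, and for microhomology above, include chromosome 6 with its Igk locus. Chromosome 6 stood at 38.5 joins per Mb in Ku70-/- (median of other autosomes 4.51) and at 20.3 in the double-null (median 3.78). Neither comparison was repeated without it, so what it contributes was not tested.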

How the data were processed

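Junction lists were deposited with 1 row per read, giving partner chromosome, position and strand, bait end and the read positions where both alignments meet. Per the labels' protocols, libraries followed a published protocol without its enzyme blocking step and were sequenced on Miseq or Nextseq. Bowtie2 (version not given in the sources used here) and build mm10 are named in the submitters' processing notes. The authors normalised to a raw read number, given in the labels. Rows per 100000 raw reads were computed here with a pseudocount of 0.5. Distinct joins were counted once per library, and shares used libraries with at least 10. Runs were read from read names. Gene bodies were from RefSeq on GRCm38.p6, for which 29 of 32 and 28 of 29 names of the gene lists matched; exons were not used here. Groups were compared by two-sided exact permutation tests within clone sets (400 relabellings; python 3.11.15, scipy 1.17.1), tested on simulated data, with Benjamini-Hochberg adjustment over 20 planned and 15 added tests. Bait loss, insertion, gene-rich and telomeric shares and the double-null against +Lig4 comparison were added after seeing the data. Named genes are the 10 hit in most libraries and both lists; named sites are the 5 in most libraries. The members and lists were chosen with earlier results of these data known.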

Additional observations from a re-analysis of the deposited data

Results flagged for a closer look

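The change in far joins from G1 to cycling libraries was larger in Lig4-/- than in WT, but this difference did not pass after adjustment. Cycling against G1 changed the log2 level by 4.63 in Lig4-/- and by -0.03 in WT, a difference of effects of 4.67 (exact permutation p = 0.05, the smallest p among 26 such differences, adjusted p = 0.871). It was picked out because effects under the same contrast differed between the genotypes. Each of the 3 cycling Lig4-/- libraries lay above the 3 G1 libraries, and 2 of those G1 libraries held no far join. The cycling and G1 libraries shared no sequencing run.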

How the results depend on the processing

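Of 593 alternative values for 45 results, 537 kept their direction and their side of the unadjusted 0.05. The 5 abundance differences that passed over 2 clone sets did so under each alternative that used both sets. Abundance, cycling WT against G1 WT (-0.03), turned to 0.032 over 50 kb, 0.040 without overlaps of at least 8 bp, 0.054 without recurrent sites and 0.17 without reads that repeat the bases after the break; cycling Lig4-/- against cycling WT (0.11) turned to -0.24 over 1 Mb and -0.012 without such reads. The chromosome 15 share without chromosome 6 passed for Lig4-/- against WT (-4.22 points, exact permutation p = 0.01), Ku70-/- against Lig4-/- (3.20, p = 0.02) and the double-null against +Lig4 (-1.23, p = 0.05). Without overlaps of at least 8 bp it turned to -3.45 for the double-null and -2.45 for +Lig4, each against Lig4-/-, and the telomeric share of Ku70-/- against WT passed (8.08, exact permutation p = 0.045). Counting overlaps from 1 bp turned the cycling Lig4-/- against cycling WT share to -3.86, and for far joins against other chromosomes in WT and +Lig4 it gave -2.37 (exact permutation p = 0.241); that result was -1.76 without long overlaps and -1.31 with at least 5 joins per library. The gene-rich share of the double-null against +Lig4 was 7.76 in windows with at least 5 gene starts (exact permutation p = 0.065). Steps of 1000 bp gave 14 recurrent sites in place of 6, and joins of at least 2 groups gave 45. The causes were not tested.

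Leaving out single libraries gave 0.60 to 0.93 for abundance in Ku70-/- against WT, -0.62 to 0.29 for cycling WT against G1 WT, -0.15 to 0.37 for cycling Lig4-/- against cycling WT and 0.25 to 0.85 for the double-null against +Lig4. For the chromosome 15 share it gave -2.34 to -1.34 (Ku70-/- against WT), -3.16 to -1.81 (Lig4-/- against WT), -0.45 to 1.81 (double-null against Lig4-/-), -2.52 to -0.72 (+Ku70 against double-null) and -1.24 to -0.69 (double-null against +Lig4). The gene-rich share ranged from -8.50 to 14.3 in cycling Lig4-/- against cycling WT and from 8.29 to 12.5 in the double-null against +Lig4. The telomeric share ranged from 5.52 to 10.1 (Ku70-/- against WT) and 6.41 to 9.91 (double-null against +Lig4), and the microhomology share of the latter from 6.04 to 10.5.

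Same-numbered libraries deviated together in some comparisons and apart in others. The labels do not say whether they share more than a number, and so few pairs cannot decide it. With the replicate number as a block (exact sign flips), the unadjusted call was lost for the microhomology share of Ku70-/- against WT (10.4 points, p = 0.0625) and of the double-null against +Lig4 (7.62, p = 0.0625) and for its gene-rich share (9.84, p = 0.125), and no other call changed. The small number of far joins, at the same raw read number as the matched groups, limited the microhomology comparisons with G1 Lig4-/- and +Ku70. Too few of those libraries held 10 far joins.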
